A study of Mus musculus with 4 samples.

Results

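Myeloid C-type lectin receptors are membrane proteins with which macrophages and related cells bind sugars, glycolipids and cell surface proteins. The 10 mouse genes described here are Clec4e, Clec4d, Clec4n, Clec7a, Clec5a, Clec4a1, Clec4a2, Clec4a3, Clec12a and Clec2d. They were chosen by symbol, with earlier results of these data known. Each symbol matched 1 gene, so these are 10 of the 55536 annotated genes in the deposited tables. The data are 4 libraries of cytosolic total RNA, depleted of ribosomal RNA, from macrophages grown in culture from the bone marrow of C57BL/6J mice. All 4 libraries belong to 1 group. The cells were pretreated with 100 ng/ml lipid A, the Toll-like receptor 4 ligand of bacterial lipopolysaccharide, for 12 h, kept without it for 12 h and restimulated with 100 ng/ml for 15 min. The labels call them biological replicates 1 to 4, name 1 donor record for all of them and do not record sex or age. Without a control group in the samples used here, the values are levels in restimulated macrophages, not responses to lipid A.

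As background, some of these receptors are activating and others inhibitory, and Clec4a1, Clec4a3 and Clec2d are placed in neither kind here. Clec4e (Mincle), Clec4d (MCL) and Clec4n (dectin-2) signal through the adaptor FcRgamma, encoded by Fcer1g, and Clec5a (MDL-1) through DAP12, encoded by Tyrobp, while Clec7a (dectin-1) carries its own tyrosine motif. These lead to the kinase Syk and, through Card9, Bcl10 and Malt1, to NF-kappaB and cytokine genes. Clec4a2 (DCIR) and Clec12a (MICL) have inhibitory motifs that bind phosphatases such as those encoded by Ptpn6 and Ptpn11.

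All 10 genes lie on chromosome 6 (mm10, GENCODE M21). For 6 of them, coding stretches that some annotated transcripts have and others lack are shown, because the transcript results turn on them. They were read 5′ to 3′ in the direction of transcription from the GENCODE M21 transcripts, and each is wholly in lower case because the whole stretch is present in some transcripts and absent from others. The first is the part of exon 3 that Clec7a-204 and Clec7a-201 share and Clec7a-202 lacks, at chr6:129468869-129468993 on the minus strand.
Clec7a, 125 bases: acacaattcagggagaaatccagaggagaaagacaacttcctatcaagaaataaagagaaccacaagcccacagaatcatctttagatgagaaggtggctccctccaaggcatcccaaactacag
The next are from Clec4n (chr6:123232093-123232194, plus strand), Clec4a2 (chr6:123139057-123139128, plus strand), Clec4d (chr6:123267992-123268068, plus strand) and Clec4e (chr6:123286432-123286518, minus strand).
Clec4n, 102 bases: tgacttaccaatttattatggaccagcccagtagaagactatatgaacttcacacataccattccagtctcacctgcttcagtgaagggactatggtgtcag
Clec4a2, 72 bases: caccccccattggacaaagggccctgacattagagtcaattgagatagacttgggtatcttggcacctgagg
Clec4d, 77 bases: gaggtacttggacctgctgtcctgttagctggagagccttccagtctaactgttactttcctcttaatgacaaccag
Clec4e, 87 bases: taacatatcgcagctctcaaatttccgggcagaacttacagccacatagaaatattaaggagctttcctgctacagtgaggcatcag
Clec5a has 3 such stretches on the minus strand, at chr6:40584356-40584430, chr6:40582235-40582294 and chr6:40581800-40581936.
Clec5a, 75 bases: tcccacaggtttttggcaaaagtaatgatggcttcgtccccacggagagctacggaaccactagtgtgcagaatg
Clec5a, 60 bases: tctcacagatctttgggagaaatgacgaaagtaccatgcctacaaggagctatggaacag
Clec5a, 137 bases: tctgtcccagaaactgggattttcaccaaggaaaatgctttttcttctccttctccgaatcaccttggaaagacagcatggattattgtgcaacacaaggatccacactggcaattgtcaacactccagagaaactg

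Each of the 10 genes was expressed well above 1 TPM (a level scaled for transcript length and to a fixed total per library). Clec4a1 had the highest mean, 206 ± 54.1 TPM, and Clec5a the lowest, 12.7 ± 4.24 TPM (SD, n = 4 each), a ratio of 16.2 between the means. The 10 genes summed to 959, 617, 702 and 955 TPM in replicates 1 to 4, and Clec4a1 alone made up 25.2% of a library's sum on average. All 10 passed the low-count filter, and all 10 were called above 1 TPM by limma with Benjamini-Hochberg adjustment over 16262 genes. The adjusted p ran from 1.48e-10 for Clec12a to 1.35e-08 for Clec5a. The same call was made for 71.2% of the protein-coding genes tested and 58.2% of all genes tested, so the call alone says little about these genes. None was called below 1 TPM, against 35.1% of all genes tested, and each value in each library lay above that level. At a level of 10 TPM, chosen after the values were seen, limma called 9 of the 10, against 27% of the protein-coding genes tested. The exception was Clec5a, with an adjusted p of 0.288. The median of the 10 mean levels was 65.6 TPM, against 4.85 TPM for the protein-coding genes tested. As the 10 genes were chosen with earlier results of these data known, these contrasts in level are a description only.

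**Figure D1:**
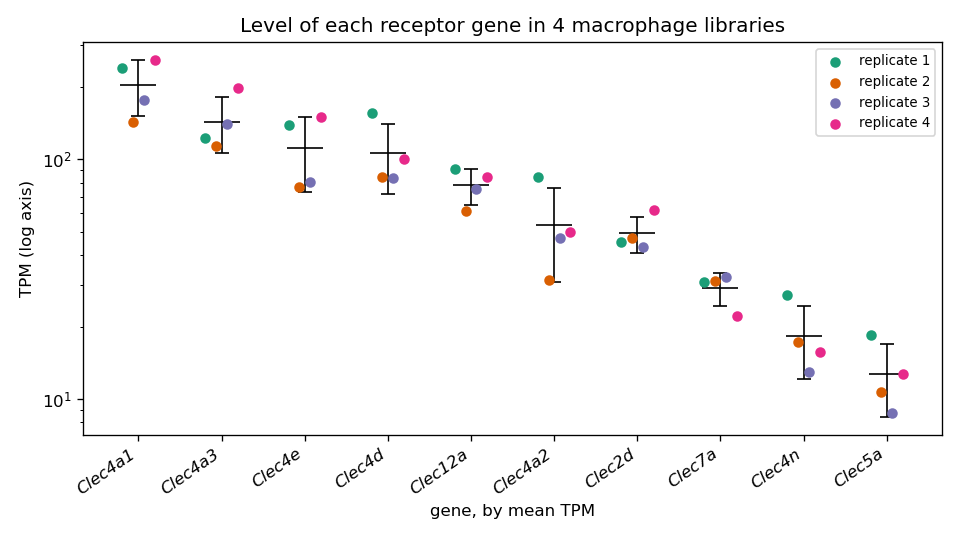
TPM on a log axis for the 10 receptor genes, ordered by mean, with 1 point per library; the wide dash is the mean and the bar 1 SD on each side (n = 4). Clec4a1 is highest, with a mean of 206 TPM, and Clec5a lowest, with 12.7 TPM, and neighbouring genes such as Clec4e and Clec4d overlap.

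Among the activating receptors, Clec4e and Clec4d were the most abundant and had nearly the same mean. Clec4e (ENSMUSG00000030142.10, chr6:123281789-123289870, minus strand), the receptor for mycobacterial cord factor, had 139.87, 76.44, 80.64 and 150.97 TPM in replicates 1 to 4, a mean of 112 ± 38.9 TPM. Replicates 1 and 4 were high and replicates 2 and 3 low. Clec4d (ENSMUSG00000030144.4, chr6:123262111-123275265, plus strand), whose protein pairs with Mincle, had 157.01, 84.67, 84.01 and 100.23 TPM, a mean of 106 ± 34.5 TPM. Replicate 1 stood above the others, which lay close together. The mean of Clec4e was the higher of the pair, yet Clec4e exceeded Clec4d in only 1 of 4 libraries, replicate 4 (exact two-sided sign-flip permutation test, p = 1.0).

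The other 3 activating receptors were lower. Clec7a (ENSMUSG00000079293.11, chr6:129461591-129472779, minus strand), the beta-glucan receptor dectin-1, had 30.71, 30.93, 32.28 and 22.26 TPM, a mean of 29.0 ± 4.58 TPM. Replicates 1 to 3 were almost equal and replicate 4 was the low one. The annotation files this gene under the type polymorphic pseudogene, although 2 of its transcripts have the type protein coding. Clec4n (ENSMUSG00000023349.14, chr6:123229843-123247021, plus strand), the mannan receptor dectin-2, had 27.2, 17.28, 12.94 and 15.66 TPM, a mean of 18.3 ± 6.22 TPM. Clec5a (ENSMUSG00000029915.14, chr6:40574894-40585821, minus strand) had 18.56, 10.68, 8.76 and 12.65 TPM. Both were highest in replicate 1 and lowest in replicate 3.

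The DCIR group held the most abundant of the 10. Clec4a1 (ENSMUSG00000049037.8, chr6:122921848-122934619, plus strand), a homologue of DCIR, had 241.27, 143.69, 177.67 and 259.49 TPM. Clec4a3 (ENSMUSG00000043832.13, chr6:122952515-122969875, plus strand), another homologue, had 122.7, 114.23, 140.36 and 198.44 TPM, a mean of 144 ± 37.9 TPM. Both were highest in replicate 4 and lowest in replicate 2. Clec4a2 (ENSMUSG00000030148.15, chr6:123106428-123143999, plus strand), DCIR itself, had 84.68, 31.24, 47.18 and 49.82 TPM, a mean of 53.2 ± 22.5 TPM. It had the widest range of the 10, with a highest value 2.71 times its lowest.

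Clec12a, which like Clec4a2 has an inhibitory motif, and the ligand gene Clec2d lay in the middle of the range. Clec12a (ENSMUSG00000053063.11, chr6:129342691-129365303, plus strand), whose protein binds uric acid crystals, had 91.63, 60.62, 75.17 and 84.33 TPM, a mean of 77.9 ± 13.4 TPM. Clec2d (ENSMUSG00000030157.5, chr6:129180615-129186534, plus strand) encodes Clr-b, the ligand of an inhibitory receptor of natural killer cells. It had 45.25, 46.78, 43.1 and 61.59 TPM, a mean of 49.2 ± 8.41 TPM, and replicate 4 was the high one. The gene of its receptor, Klrb1b, had 2 counts over the 4 libraries and a mean of 0.01 TPM.

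In the order of mean levels, Clec4a1, Clec4a3, Clec4e, Clec4d, Clec12a, Clec4a2, Clec2d, Clec7a, Clec4n and Clec5a, 6 of the 9 neighbouring pairs kept their order in each of the 4 libraries. Of all 45 pairs, 41 kept it. With 4 libraries the exact two-sided sign-flip test cannot go below p = 0.13, so no neighbouring pair could reach 0.05, and the 6 ordered pairs each had that p (0.188 after adjustment over the 9 pairs). The neighbouring pairs whose order changed between libraries were Clec4a3 and Clec4e (3 of 4 in the order of the means), Clec4e and Clec4d (1 of 4), and Clec4a2 and Clec2d (2 of 4). The other pair that changed was Clec4a3 and Clec4d, which are not neighbours, with Clec4d higher in replicate 1 and Clec4a3 in replicates 2 to 4. The widest step was between Clec2d and Clec7a, a ratio of 1.69 with 4 of 4 libraries in that order.

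Several of the genes differed between the libraries in the same direction. TPM depends on what else is in a library, and protein-coding genes held 31.7%, 25.3%, 30.0% and 36.6% of the TPM in replicates 1 to 4. Counts scaled to a common library size by TMM (CPM, from expected counts of 870 to 20402 per gene and library) were therefore compared as well. On that scale 7 of the 10 genes were highest in replicate 1, against 39.4% of 10373 protein-coding genes whose counts averaged 50 or more. In TPM as deposited it was 5 of 10 in replicate 1 and 4 of 10 in replicate 4. In TPM rescaled to protein-coding genes it was 7 and 1. Which library is high thus depends on the scale for some genes: Clec4e and Clec4a1, highest in replicate 4 in TPM, were highest in replicate 1 in CPM, and Clec2d, highest in replicate 4 in TPM, was highest in replicate 2 in CPM. The median log2 difference of replicate 1 from the other 3 was 0.47 for the 10 genes and 0.06 for those protein-coding genes. Clec4a2 (1.06), Clec4n (0.88), Clec4d (0.83) and Clec5a (0.78) differed most in replicate 1, whereas Clec4a3 was lowest there, at -0.21, and Clec2d was at -0.12. Clec7a instead had its largest difference in replicate 4, at -0.75. Summed macrophage markers (10 genes) were 7905, 5940, 7557 and 8632 TPM as deposited in replicates 1 to 4. These sums were not put on the CPM scale, so their order over the libraries cannot be set against the replicate 1 differences above. Among these markers Adgre1, which encodes F4/80, had 786.66, 415.55, 892.45 and 730.76 TPM, and Csf1r had 125.85, 106.03, 192.40 and 156.71 TPM. Markers of the labelled cell type were thus present in each library. Summed neutrophil markers (10 genes) were 12.4, 10.5, 16.6 and 8.33 TPM and dendritic cell markers (8 genes) 1.94, 0.64, 1.34 and 1.69 TPM. Ly6g, which defines neutrophils, was at 0 in 3 libraries and 0.02 TPM in the other, while S100a9 (4.04 to 8.62 TPM) and S100a8 (3.16 to 6.14 TPM) were present in each library and made up most of the neutrophil sum. Zbtb46 of dendritic cells was at 0.06 to 0.09 TPM, while Ccr7 (0.39 to 1.42 TPM) made up most of the dendritic cell sum in each library. The 4 markers each of B, T and natural killer cells summed to at most 0.28 TPM in any library. The part of these cells in the differences between libraries was not tested. In bulk libraries, fewer cells of a type and less RNA per cell cannot be told apart.

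**Figure D2:**
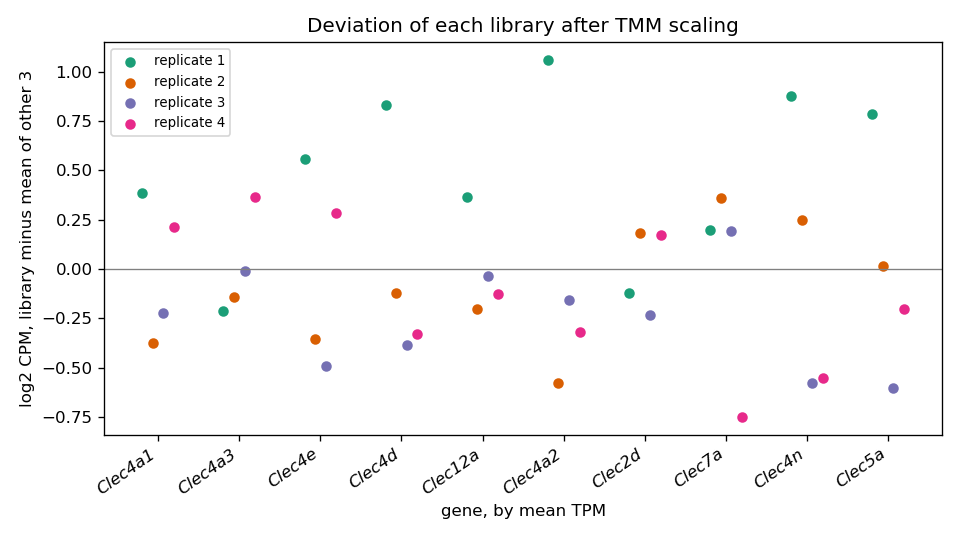
Log2 CPM of each library minus the mean of the other 3, after TMM scaling, for the 10 receptor genes in order of mean TPM, with 1 point per library. Replicate 1 is highest for 7 genes and reaches 1.06 for Clec4a2, while Clec7a is lowest in replicate 4, at -0.75.

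The biological coefficient of variation (BCV, the relative spread between replicates beyond counting error, from edgeR) had a median of 0.206 over the 10 genes and of 0.155 over the same 10373 protein-coding genes. Over all 16262 genes tested, which include genes with lower counts, the median was also 0.206. Among the 10 genes BCV ran from 0.134 for Clec2d to 0.279 for Clec4a2, and 8 of the 10 lay above the protein-coding median. Clec4a2 was above 89.7% of those genes, Clec4n (0.265) above 88.1%, and Clec2d above 24.8%. Clec4a3 (0.154) and Clec12a (0.156) lay at the middle. Replicate 1 carried much of this spread: without it the medians were 0.143 for the 10 genes and 0.134 for the protein-coding genes, with 6 of the 10 above that protein-coding median.

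The receptors' signalling partners were nearly all expressed. Of 20 genes on this list, limma called 19 above 1 TPM and 1 below, and their median of mean levels was 26.2 TPM. Of the protein-coding genes tested, 71.2% were called above 1 TPM, and their median was 4.85 TPM. This list was also chosen with earlier results of these data known, so the contrast is a description only. The adaptors were the most abundant. Fcer1g had 1722.64, 1108.08, 1392.4 and 1825.17 TPM, and Tyrobp had 777.83, 599.04, 601.54 and 749.23 TPM, so each library held more of either adaptor than of any receptor. Hcst, the gene of the adaptor DAP10, was far lower, at 6.85 ± 0.938 TPM. Syk, the kinase that binds the phosphorylated adaptors, averaged 82.6 ± 19.2 TPM, and the Src-family kinase gene Lyn 96.1 ± 25.7 TPM. Fgr, of the same kinase family, was the gene called below 1 TPM, at 0.6 ± 0.207 TPM (adjusted p = 0.00938, limma). After rescaling to protein-coding genes all 20 were called above 1 TPM, so the direction for Fgr depends on the scale. The CARD9 complex was lower than Syk and Lyn but higher than Fgr, with Bcl10 at 17.5 ± 3.34, Card9 at 8.60 ± 1.74 and Malt1 at 5.46 ± 1.18 TPM. On the inhibitory side, Ptpn6 (SHP-1) averaged 132 ± 29.3 TPM, Inpp5d (SHIP1) 47.9 ± 7.59 TPM and Ptpn11 (SHP-2) 11.4 ± 2.05 TPM.

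Most other C-type lectin genes were low or undetected. Of 46 genes on this list, 9 were called above 1 TPM, 13 below and 1 was not called, and 23 had too few counts to be tested. With the second quantification as deposited 4 were called above, with TPM rescaled to protein-coding genes 12, and with the second quantification rescaled in the same way 13. Their median of mean levels was 0.03 TPM, on a list also chosen with earlier results of these data known. The highest was Cd72, an inhibitory receptor best known in B cells, with 105.10, 42.39, 57.06 and 99.45 TPM, a mean between those of Clec4a2 and Clec12a. Mrc1, the mannose receptor, averaged 21.5 ± 3.07 TPM, Cd302 20.7 ± 5.50 TPM and Cd69, an early activation antigen, 18.7 ± 9.26 TPM. Klra2 (3.88 ± 2.47 TPM) and Clec10a, a galactose-type lectin (2.54 ± 0.673 TPM), followed. Clec4a4, of the DCIR group, gave no call in either direction, at 1.01, 0.94, 0.9 and 1.66 TPM.

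**Figure D3:**
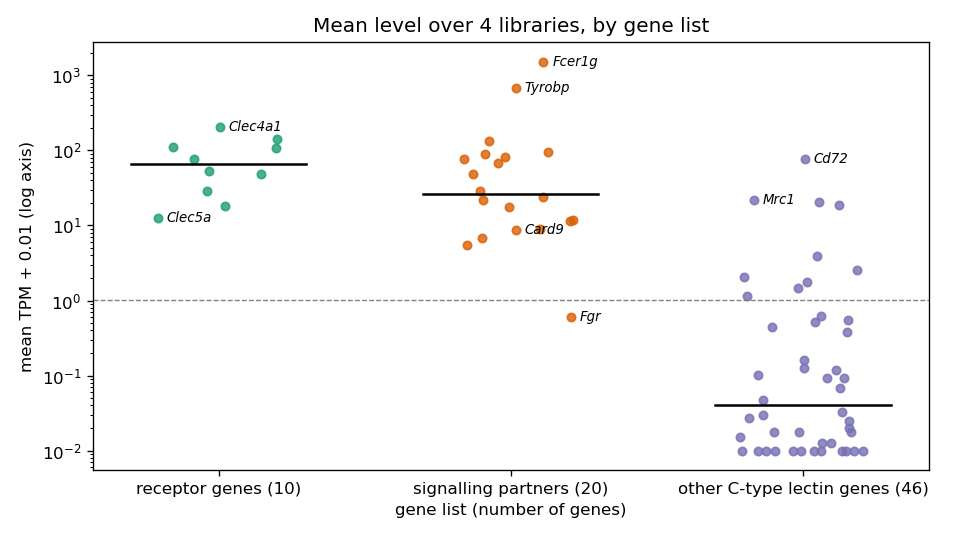
Mean TPM over 4 libraries (plus 0.01, log axis) for the 10 receptor genes, 20 signalling partners and 46 other C-type lectin genes, with 1 point per gene; black lines are medians and the dashed line marks 1 TPM. The medians are 65.6, 26.2 and 0.03 TPM, and Fcer1g is the highest point.

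The levels changed from gene to gene within short stretches of the chromosome. Between Clec4a1 and Clec4e, chr6:122921848-123289870, a span of 368023 bases, the annotation has 9 protein-coding genes, 6 of which belong to the 10. The other 3 were Clec4a4 (1.13 TPM), Clec4b1 (0.608 TPM) and Clec4b2 (0.0025 TPM, 1 count in all). They lie between Clec4a3 and Clec4n, with Clec4a2 among them at 53.2 TPM. Clec4d and Clec4e face each other at that end, with 6523 bases between their ends, and Clec4n ends 15089 bases before Clec4d begins. Between Clec2d and Clec7a, chr6:129180615-129472779, there are 9 genes over 292165 bases when Clec7a is counted with the protein-coding genes, and 3 belong to the 10. Of the others Cd69 was at 18.7 TPM, Clec1b, known from platelets, at 0.535 TPM, and the dendritic cell gene Clec9a at 0.11 TPM. Clec5a lies far from both stretches on the same chromosome.

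**Figure D4:**
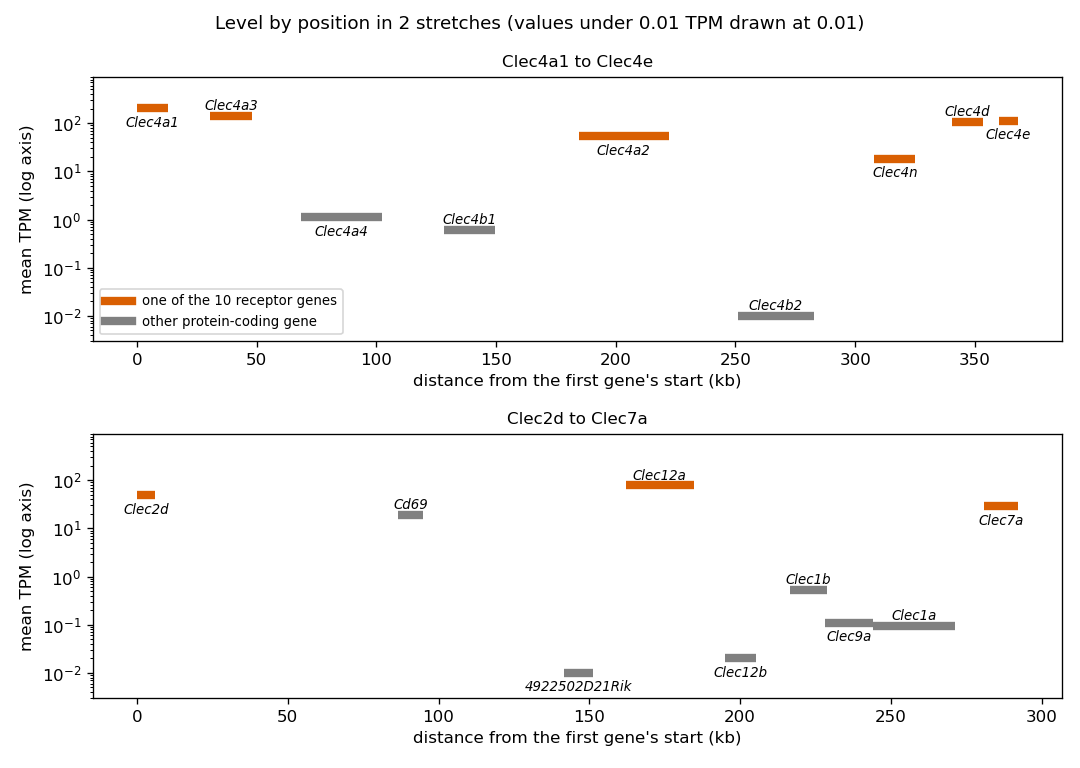
Mean TPM (log axis) of the genes in the stretch from Clec4a1 to Clec4e and in the stretch from Clec2d to Clec7a, against distance in kb from the first gene's start; each bar spans a gene, and values under 0.01 TPM are drawn at 0.01. The 9 receptor genes in these stretches lie between 18.3 and 206 TPM, and Clec4a4 and Clec4b1 lie near 1 TPM among them.

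These near relatives were told apart by the deposited gene counts. The posterior standard deviation of the count, which measures how uncertain the assignment of reads was, was 0 in each library for 9 of the 10 genes and 0.13 to 0.4 counts for Clec4a2. It was 0 in each library for 64.2% of all genes tested. The only annotated overlap was of Clec4a2 with the pseudogene Gm44132, which had 0 counts. The second deposited quantification, made directly from the reads, gave lower TPM for each of the 10, by a median log2 difference (second minus first) of -1.42, and the median over all 10329 genes compared was -1.40. After both were rescaled to protein-coding genes the medians were 0.05 for the 10 and 0.01 for all genes compared, and single members lay between -0.05 (Clec4n) and 0.10 (Clec5a). The second quantification's counts were 108% (Clec4e) to 117% (Clec2d) of the first's, so its lower TPM did not come with fewer raw counts. Library totals were larger as well, at 36212584, 45076216, 62013348 and 50480561 in replicates 1 to 4. In the first quantification they were 30660511, 36681241, 48223718 and 42785115. The raw count ratios are therefore not changes in the share of a library's counts. The limma treat test against a log2 difference of 1 called 0 of the 10 on either scale. As deposited it called 4.28% of the genes compared lower and 2.22% higher in the second, and rescaled 1.01% lower and 1.9% higher. At an unadjusted p under 0.05 in that test, 4 of the 10 passed as deposited and 0 after rescaling. Of the 10329 genes compared, 4826 passed as deposited and 475 after rescaling, so the 4 say nothing particular about these genes.

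Transcript shares of each gene's TPM were estimated in both quantifications and are given as a description. Clec4a1 and Clec2d have 1 annotated transcript each. Annotated transcripts of a gene end at different places, so reads in the last exon can move a share, and how far they did was not tested.

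For Clec7a, the estimated counts were less uncertain for the form without exon 3 than for the split between the forms with it. Exon 3 encodes the stalk of dectin-1, and its absence defines the short form of the protein. Clec7a-204 and Clec7a-201 hold it and Clec7a-202 lacks it. The forms with it made up 70.4%, 66.8%, 66.7% and 70.8% of the TPM of these 3 transcripts in the first quantification, and the mean was 68.1 ± 1.51% in the second and 68.7 ± 2.25% in the first. Over the bases they share, Clec7a-201 and Clec7a-204 differ at 8 of 2272 positions, all within 10 bases at the junction of exons 2 and 3. In the lines here those 10 bases are in capitals. Clec7a-201 reads on at the end of exon 2 (chr6:129470889-129470898) and Clec7a-204 begins exon 3 earlier (chr6:129468994-129469003).
Clec7a-201: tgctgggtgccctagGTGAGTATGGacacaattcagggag
Clec7a-204: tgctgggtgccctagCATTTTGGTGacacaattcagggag
The split was 988.21, 885.59, 824.97 and 632.22 expected counts for Clec7a-201 in replicates 1 to 4, with posterior standard deviations of 199.50, 258.33, 238.98 and 176.39. For Clec7a-202 these were at most 14.4. The annotated end of Clec7a-202 lies 18 bases after its coding part, against 1453 bases in both others. Posterior standard deviations take these ends as given, so the share with exon 3 may be less certain than they show.

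In Clec4n, the 102-base stretch shown above was in transcripts with 77.2 ± 2.62% of the TPM in the second quantification and 73.4 ± 1.40% in the first, of those that span it. Its main transcripts were Clec4n-201, with the stretch, and Clec4n-202, without it, and their annotated ends after the coding part are of similar length, 437 and 439 bases. In Clec4a2 the 72-base stretch was in the minority, with 26.0 ± 1.67% in the second quantification and 27.7 ± 0.878% in the first. Both lengths are multiples of 3, so they keep the reading frame.

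In Clec4d the 77-base stretch does not keep the frame, and the transcript without it, Clec4d-203, is annotated as subject to nonsense-mediated decay, which removes transcripts with an early stop codon. The share with the stretch was 69.7 ± 1.92% in the second quantification and 77.5 ± 0.362% in the first. In the first quantification Clec4d-203 held 23.0%, 22.3%, 22.1% and 22.4% of the gene's TPM, which was nearly the same in the 4 libraries although the gene's level was not. The coding transcript Clec4d-201 held 76.6 ± 0.206% there, with annotated ends of 449 bases for Clec4d-203 and 448 for Clec4d-201.

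In Clec4e, most of the TPM of transcripts that span it was in those with the 87-base stretch, 85.7 ± 5.37% in the second quantification and 94.2 ± 2.38% in the first. Clec4e-201 has 1754 bases after its coding part, against 52 in Clec4e-207 and 96 in Clec4e-204, which lack the stretch. The quantifications differed most for this gene. Clec4e-201 held 68.2 ± 8.28% in the second and 84.6 ± 3.55% in the first, and transcripts with a retained intron held 12.5 ± 4.01% and 5.45 ± 1.63%. In Clec12a retained introns held 2.68 ± 1.87% in the second and 1.69 ± 1.08% in the first, and Clec12a-201 held 90.5 ± 5.29% and 98.2 ± 1.00%.

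For Clec5a the leading transcript has no annotated coding part. Clec5a-201, of the type processed transcript, held 59.2 ± 2.17% in the second quantification and 62.9 ± 2.22% in the first. It lacks the stretches of 60 and 137 bases shown above, which were in transcripts with 40.8 ± 2.17% and 37.1 ± 2.22% of the gene's TPM. MDL-1 is known in a long and a short form that differ in the stalk. The 75-base stretch, which distinguishes Clec5a-203 from the other coding forms, was at 28.3 ± 2.25% in the second and 23.8 ± 3.02% in the first. After the coding part, the annotation continues for 3075 bases in Clec5a-202, 119 in Clec5a-203 and 9 in Clec5a-204. In Clec4a3, both main transcripts have a coding length of 711 bases, and Clec4a3-201 held 68.2 ± 1.12% in the second and 62.7 ± 3.72% in the first.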

How the data were processed

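Per the file headers, the deposited gene tables hold expected counts with a posterior standard deviation, and TPM with its posterior mean; the deposited transcript tables hold expected or estimated counts and TPM. Per the deposited notes, the annotation is M21 on mm10, and only the first quantification used an alignment to the transcriptome, while the second was made from the read files. Aligner and quantifier: not given in the sources used here. Expected counts summed to 30660511 to 48223718 per library.

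The members and lists were chosen with earlier results of these data known. Genes with summed expected counts of at least 10 were tested with limma 3.58.1 (lmFit, eBayes with trend, no covariate), using log2(TPM + 0.1) set against the level of 1 TPM, one-sided each way, and a Benjamini-Hochberg adjusted p under 0.05 over all genes was a call. As the labels do not say that the replicates are separate animals, p-values cover only the spread among these 4 libraries, which may be technical. Spread used edgeR 4.0.16 (TMM, estimateDisp) on rounded expected counts. Quantifications were compared with limma treat on genes of at least 1 TPM in either. DESeq2 1.42.0 served as an alternative. The fits were tested on simulated data. Named beside the 10 genes were signalling partners by role, the 6 other C-type lectin genes with the highest mean, any without a call, and genes within the 2 stretches. Not every listed gene is reported here. R 4.3.3, Python 3.11.15 and matplotlib 3.10.9 were used.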

Additional observations from a re-analysis of the deposited data

Results flagged for a closer look

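Among 58 sets of 4 library values checked, 7 had 1 library far from the other 3 by Dixon's test, and chance flags about 1 in 20 such sets. The sets are not independent, since several of the 7 are Clec5a transcript shares, so the number flagged cannot be set against that rate. Clec4d had 261 TMM-scaled CPM in replicate 1, above the others. Clec7a had 22.26 TPM in replicate 4, below the others. In replicate 1 the leading transcript Clec5a-201 held 59.6% of the gene's TPM, the lowest share, and the Clec5a stretches of 60 and 137 bases were at 40.4%, the highest, which is the same difference seen from the other side. The Clec5a stretch of 75 bases was at 28.3% in replicate 1, against 22.2% to 22.3% in the others. Inpp5d had 36.61 TPM in replicate 2, below the others.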

How the results depend on the processing

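All 130 recomputed levels of the 10 genes (other pseudocounts, filters, scalings, the second quantification, posterior mean TPM and leaving out each replicate) kept their call above 1 TPM. The other C-type lectin genes called above 1 TPM numbered 9, against 4 with the second quantification as deposited and 4 at a level of 10 TPM, which was chosen after seeing the data, and against 12 with TPM rescaled to protein-coding genes and 13 with the second quantification so rescaled. The 10 genes differing between quantifications numbered 0, but 10 at a log2 difference of 0.5 and 2 with a pseudocount of 1, without rescaling. As deposited, the median log2 difference over all genes compared was -1.40. The share of all genes called at these 2 settings was not recorded, so neither count is a result about the 10. The signalling partners called numbered 19 or 20 under each alternative at 1 TPM and 13 at 10 TPM, neighbouring pairs in 1 order 6 or 7, and the median BCV lay between 0.143 (without replicate 1) and 0.213 (without replicate 4). The leading transcript's share moved by more than 1 SD in 7 of 50 recomputed values, all 7 with the second quantification. Leaving out 1 of 4 replicates cannot move a mean by 1 SD, so those recomputed values could not have been counted as moved. With the second quantification Clec7a stayed within 1 SD, and Clec4a1 and Clec2d, with 1 transcript each, could not move. The total of 50 therefore does not show that the shares are stable. With 4 libraries, 1 group and 1 donor record, no difference between conditions can be tested. The depth leaves little counting error, since each of the 10 genes had at least 870 counts in each library. No pairing between conditions was possible because there is 1 group, while the quantifications and the neighbouring genes were compared within each library.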
